A study of Mus musculus with 12 samples.

Results

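The effect of losing PDK1 on the transcripts of cytotoxic T lymphocytes (CTL) was set against the effect of inhibiting Akt, gene by gene. The quantity described is a difference of effects on the log2 scale: the change from Tamoxifen Cre Control to PDK1 null CTL, minus the change from wild type CTL to wild type CTL+AktI. A positive difference therefore marks a transcript that was higher, or less reduced, after Pdpk1 deletion than with AktI. All 12 arrays of the 12 in the series enter it, 3 in each of 4 groups, and it was obtained for 18193 genes. The question is where removal of a kinase that acts on many substrates and inhibition of 1 of those substrates moved the CTL transcriptome by different amounts.

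Every culture was grown from spleen cells. The wild type mice and the line that supplied Cre were C57BL/6. The strain in which the floxed Pdpk1 allele was made is not known. T cells were activated for 48 hr by the CD3 antibody 2C11 at 0.5 μg/ml and then held in IL-2 at 20 ng/ml for 5 days. The paper names IL-2 during activation for the wild type cultures of the arrays and does not name it for the Pdpk1-deleted ones. The Tamoxifen Cre Control and PDK1 null groups, each from 3 mice, shared the C57BL/6GT(ROSA)26tm9(creEsr1)Arte (TamoxCre) allele, a Cre recombinase from the ubiquitously active Rosa26 locus that works only when 4OHT, an active form of tamoxifen, is bound. The PDK1 null cultures also carried PDK1fl/fl, and both groups received 0.6 μM 4OHT for the last 72 hr, so that Cre and 4OHT were common to the groups compared. The wild type CTL and wild type CTL+AktI groups came from 3 further mice in a separate experiment, with each mouse's culture divided between IL-2 alone and IL-2 with 1 μM of the Akt inhibitor AktI-1/2 for the last 48 hr. A gene deletion and an inhibitor, 72 hr and 48 hr, and the experiments themselves are confounded in this contrast, so their parts in a difference cannot be told apart.

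PDK1, encoded by Pdpk1, phosphorylates the activation loop of AGC family kinases, among them Akt, p70 S6 kinase, RSK, SGK and several PKC isoforms. Akt is recruited to the membrane by the phosphoinositide products of PI3K and, among other actions, phosphorylates Foxo transcription factors and keeps them out of the nucleus. AktI-1/2 is an allosteric inhibitor that acts on Akt through its pleckstrin homology domain, so the other AGC kinases are not its intended targets.

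Median log2 signals of the arrays lay between 4.61 and 4.63 where Pdpk1 was deleted or its controls were grown, and between 5.10 and 5.14 in the AktI experiment. The experiments were therefore taken as normalized apart, and effects within an experiment were compared, never levels between them. Background was set in each experiment at the 95th percentile of 80 olfactory and vomeronasal receptor probe sets (log2 signal 4.45 and 4.99), and 11203 genes had a group mean above it in both experiments and lay away from Pdpk1 on chromosome 17. All 6 CTL markers measured (Cd3e, Cd8a, Cd8b1, Gzmb, Prf1 and Ifng) were above background in each group. Of 17 myeloid and basophil markers, 7, 8, 4 and 4 were above background in Cre control, PDK1 null, wild type and AktI cultures, and of 10 B cell markers 4, 4, 6 and 6. In bulk cultures fewer cells of a type and less RNA per cell cannot be told apart. The brighter Pdpk1 probe set read 8.96, 9.03 and 8.96 in Cre control and 9.04, 8.95 and 9.09 in PDK1 null CTL, a change of 0.05 on the log2 scale. Whether the probes target exons that Cre removes is not known, so the signal does not check the genotype. The Pdpk1 mRNA difference between the effects was 0.18 (adjusted p = 0.561 by limma).

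Across the genes above background in both experiments and away from Pdpk1, the effects of deletion and inhibitor correlated with r = 0.63, a description over genes, which are not independent replicates. The contrast was fitted with limma over all 12 arrays, and a difference passed at an adjusted p under 0.05 and a size of at least 1.5-fold. In all, 95 genes passed, which is 0.522% of the 18193 genes tested, with 58 higher (0.319%) and 37 lower (0.203%) after Pdpk1 deletion relative to AktI. Of these, 68 were above background in both experiments and away from Pdpk1 (0.607% of 11203), 46 higher and 22 lower. A further 10 lay away from Pdpk1 but below background in an experiment, and 17 were neighbours of Pdpk1. At an unadjusted p under 0.05 there were 1541 of the 11203. The median difference over the 11203 genes was -0.004 on the log2 scale.

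The larger effect was mostly that of AktI. It exceeded the Pdpk1 effect in size for 45 of the 68 genes and was the smaller one for 23. When each experiment was fitted on its own 6 arrays, 36 of the 68 passed with AktI only (28 falls and 8 rises), 12 after deletion only (6 rises and 6 falls), 4 in both in the same direction and 16 in neither, while no gene of the array passed in both in opposite directions. The 16 genes that passed in neither all had effects of opposite sign, each under the threshold on its own. For comparison, 1.36% of all genes passed after Pdpk1 deletion and 2.53% with AktI.

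**Figure D1:**
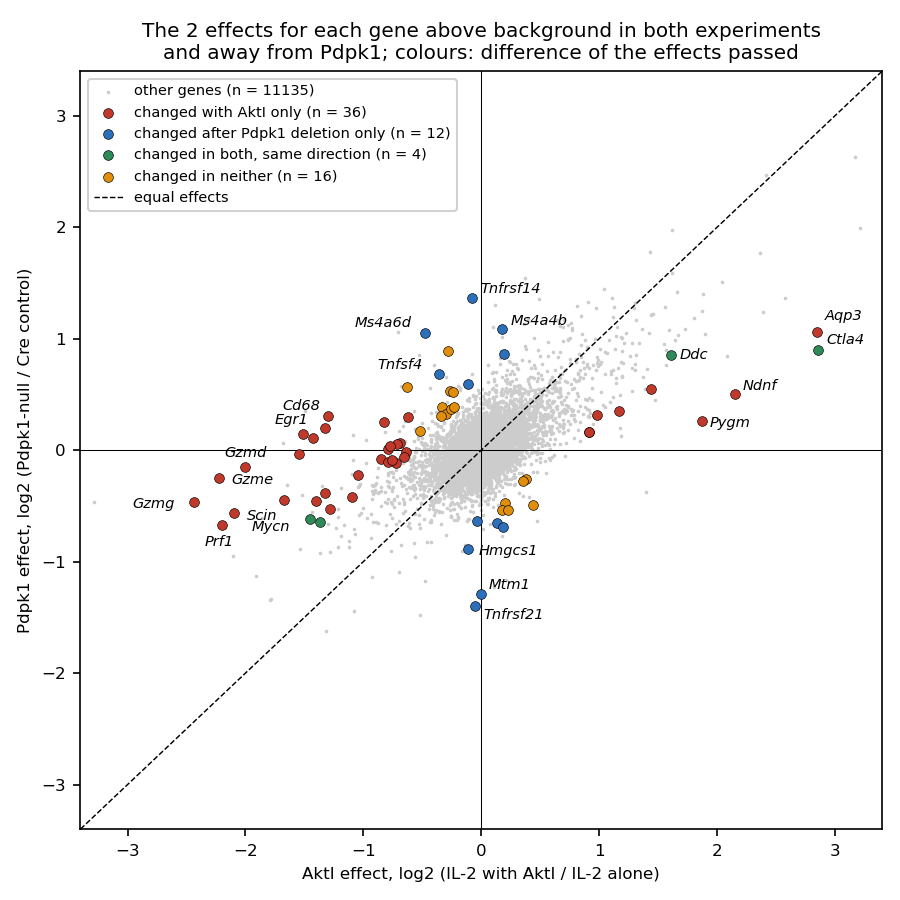
Each point is 1 of 11203 genes above background in both experiments and away from Pdpk1, with the AktI effect on the x axis and the Pdpk1 effect on the y axis, both as log2 ratios of group means (3 arrays per group). Coloured points are the 68 genes whose difference passed, by the comparison in which each changed, and the 36 that changed with AktI only lie close to 0 on the y axis or on the side of the AktI effect.

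The list of cytotoxic effector molecules had more differences that passed than any of the other gene lists. Of the 23 members measured, all above background in both experiments, the difference passed in 6, every one higher after deletion (0.411% of comparable genes passed in that direction), and the estimate was positive in 22 of 23. At an unadjusted p under 0.05, 14 of 23 were higher and 0 lower, against 6.81% and 6.94% of comparable genes. The list's median was 0.01 for the Pdpk1 effect, -0.40 for the AktI effect and 0.43 for the difference, where all comparable genes had a median difference of -0.004. Gzmd, Gzme and Gzmg, among the 6 that passed, are near-identical paralogues and not independent. In Cre control Gzma and Gzmc were on average 0.247 and 0.706 below the brightest probe set on the log2 scale. In wild type CTL they were 0.914 and 4.0 below it. Gzmb, Gzmd, Gzme and Gzmg also lay near the top in Cre control. How far this compresses the list's Pdpk1 effects was not tested.

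Prf1 encodes perforin, the pore-forming protein of cytotoxic granules. Its log2 signal was 11.82, 12.28 and 11.92 in Cre control and 10.89, 11.64 and 11.47 in PDK1 null CTL, against 12.24, 11.85 and 12.36 in wild type and 9.94, 9.73 and 10.16 in AktI cultures. No PDK1 null array reached the lowest control, but the shift was -0.67 (adjusted p = 0.14), and with AktI Prf1 fell by 2.20 on the log2 scale (adjusted p = 0.000164). The difference of 1.53 (standard error 0.27, adjusted p = 0.026) corresponds to 2.89-fold. With arrays left out in turn it passed in 4 of 12 fits and missed without Cre control 1 or 3, PDK1 null 2 or 3, wild type 1 or 3 or AktI 1 or 2, the adjusted p reaching 0.0846. Fasl, the ligand that triggers death through Fas, gave the tightest contrast of this group. It read 10.21, 10.10 and 10.15 in Cre control, 10.17, 10.19 and 10.15 in PDK1 null, 11.81, 11.73 and 11.54 in wild type and 10.94, 10.95 and 10.81 in AktI cultures. Deletion left Fasl within the control range (0.01) whereas AktI lowered it by 0.79, a difference of 0.81 (standard error 0.107, adjusted p = 0.00364), and its other probe set passed in the same direction. Gzmm, the granzyme with the lowest signals among those that passed, shifted by 0.29 after deletion and fell by 0.62 with AktI (difference 0.92, adjusted p = 0.0242), passing in 5 of 12 fits with an array left out. Ifng, the effector cytokine, had estimates of -0.95 and -2.10, and its difference of 1.15 did not pass (95% interval 0.12 to 2.18, adjusted p = 0.419).

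Gzmd, Gzme and Gzmg are neighbouring granzyme genes on chromosome 14 and carried the 3 largest positive differences among genes above background in both experiments. Gzme read 13.29, 13.42 and 13.23 in Cre control and 12.78, 13.22 and 13.19 in PDK1 null CTL, and 11.82, 11.90 and 12.40 in wild type against 9.72, 9.49 and 10.24 in AktI cultures. Its Pdpk1 effect was -0.25 and its AktI effect -2.22 (difference 1.97, standard error 0.264, adjusted p = 0.00375, 3.93-fold). The differences of Gzmg (1.97, adjusted p = 0.00557) and Gzmd (1.85, adjusted p = 0.000837) were alike, and all 3 genes passed in each of the 12 fits that left out an array. For Gzmg the Pdpk1 effect was -0.46 and the AktI effect -2.43, and for Gzmd they were -0.15 and -2.004. Signals of Gzmd, Gzme and Gzmg were close to the top of the scale in the Pdpk1 experiment. In Cre control they were on average 0.486, 0.821 and 0.385 below the brightest probe set. In wild type CTL they were 1.92, 2.74 and 5.03 below it. How far this compresses their Pdpk1 effect was not tested. Gzmb, the main granzyme of CTL, also sat near the top in both experiments (0.088 and 0.13 below the brightest probe set), with a difference of 0.23 (adjusted p = 0.331). The 3 genes are near-identical paralogues, so probes may read more than 1 of them and their values are not independent.

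The promoters of these 3 granzymes are shown because the transcripts moved together. RefSeq (GRCm38.p6) places the windows, 250 bases before to 50 after the gene start on the minus strand, at chr14:56132544-56132843 for Gzmd, chr14:56120576-56120875 for Gzme and chr14:56159530-56159829 for Gzmg. Capitals mark the longest run that all 3 share, 38 bases, which begins 51, 52 and 67 bases before the respective start.
Gzmd: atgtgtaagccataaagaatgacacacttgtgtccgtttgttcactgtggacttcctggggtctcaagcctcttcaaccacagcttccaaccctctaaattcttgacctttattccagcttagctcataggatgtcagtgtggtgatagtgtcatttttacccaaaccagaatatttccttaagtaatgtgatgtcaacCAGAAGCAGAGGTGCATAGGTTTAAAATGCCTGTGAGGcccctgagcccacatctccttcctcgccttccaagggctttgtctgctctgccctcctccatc
Gzme: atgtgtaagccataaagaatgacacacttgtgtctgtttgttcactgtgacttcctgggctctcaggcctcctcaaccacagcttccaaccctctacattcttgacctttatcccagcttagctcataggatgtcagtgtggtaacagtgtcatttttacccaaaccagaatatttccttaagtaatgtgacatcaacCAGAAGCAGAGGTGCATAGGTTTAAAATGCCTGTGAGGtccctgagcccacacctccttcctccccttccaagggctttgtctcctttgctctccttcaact
Gzmg: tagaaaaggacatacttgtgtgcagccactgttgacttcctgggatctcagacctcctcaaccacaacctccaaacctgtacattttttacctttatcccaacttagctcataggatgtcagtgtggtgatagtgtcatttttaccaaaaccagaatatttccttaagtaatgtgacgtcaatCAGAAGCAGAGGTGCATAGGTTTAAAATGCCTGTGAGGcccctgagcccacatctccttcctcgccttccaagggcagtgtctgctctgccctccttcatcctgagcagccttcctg
In global alignment Gzmd and Gzme were identical at 94% of 299 aligned bases, Gzmd and Gzmg at 90.1% of 284, and Gzme and Gzmg at 89.4% of 283. The Foxo-type motif GTAAACA, searched on both strands, was in none of the 3 windows and in 3.65% of all 32851 promoters of the table. Across genes whose difference passed, 2 of 46 with a promoter in the table held it among those higher after deletion and 2 of 33 among those lower, against 3.4% of 14452 measured genes.

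**Figure D2:**
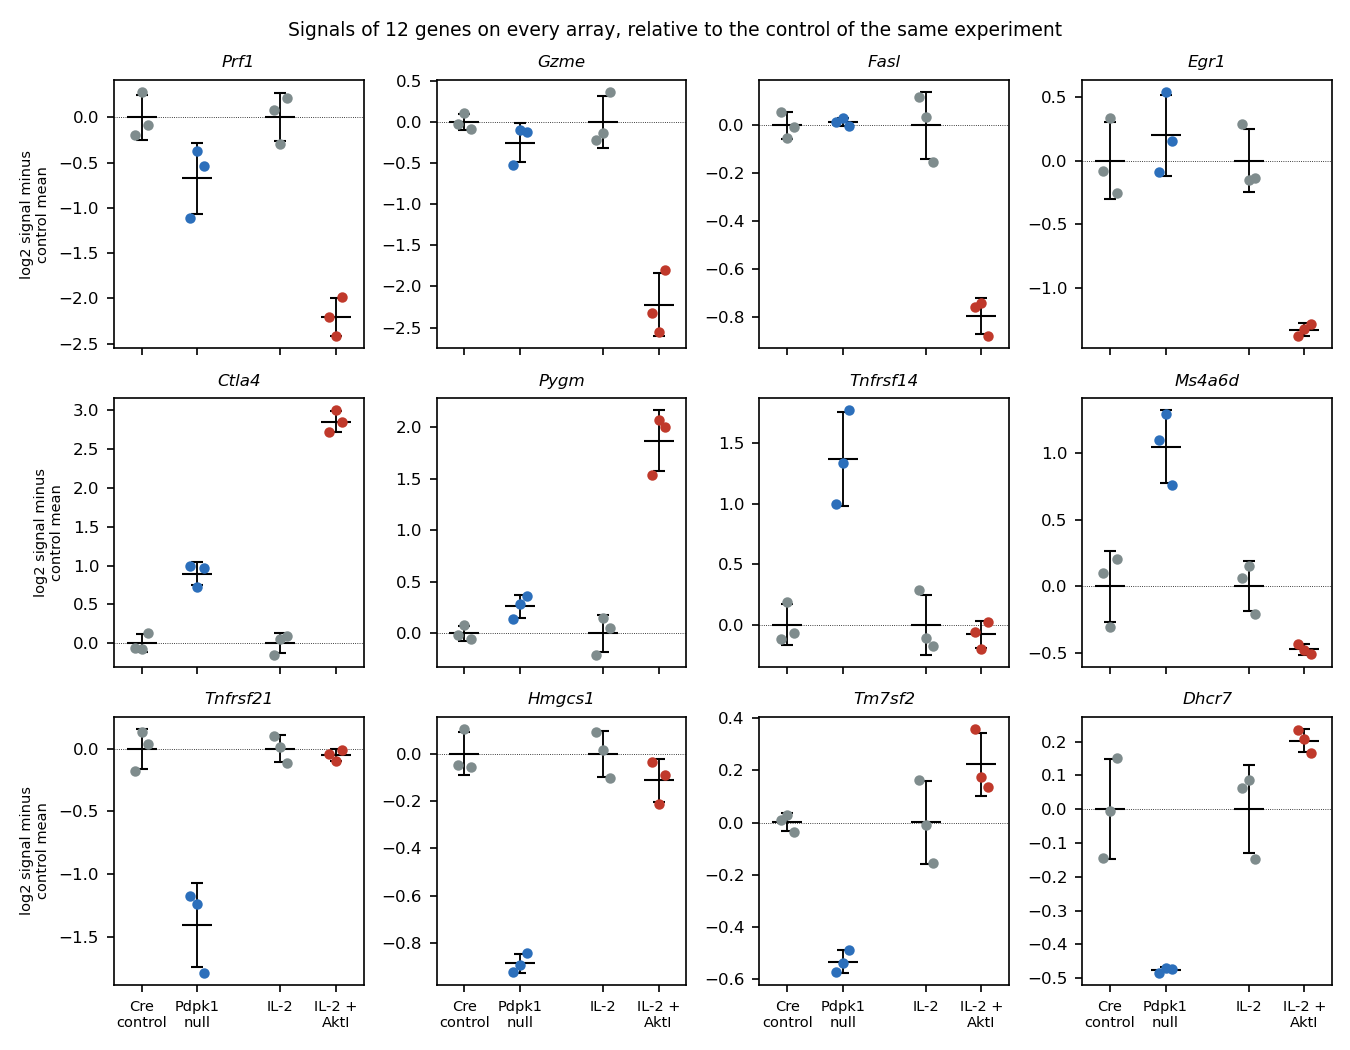
Log2 signals of 12 genes on each of the 12 arrays, minus the mean of the control group of the same experiment (Cre control or IL-2 alone), with bars for the mean and SD of 3 arrays. Prf1, Gzme, Fasl and Egr1 lie lowest with AktI, Ctla4 and Pygm highest with AktI, Tnfrsf14 and Ms4a6d highest in PDK1 null CTL, and Tnfrsf21, Hmgcs1, Tm7sf2 and Dhcr7 lowest in PDK1 null CTL.

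Among other genes with a larger fall with AktI were the transcription factors Egr1, Maf and Mycn and the signalling gene Gadd45g. Egr1, an immediate early transcription factor, read 7.98, 8.39 and 7.80 in Cre control and 7.97, 8.60 and 8.21 in PDK1 null, and 8.002, 7.57 and 7.58 in wild type against 6.33, 6.39 and 6.43 with AktI. The PDK1 null arrays overlapped their controls (0.20) and the AktI arrays lay far below theirs (-1.33), a difference of 1.53 (standard error 0.24, adjusted p = 0.0134). Maf, a transcription factor of effector T cells, had effects of 0.15 and -1.51 (difference 1.66, adjusted p = 0.0208), although the mean over its 6 probe sets was 0.88 and did not pass (adjusted p = 0.0782). Gadd45g, a stress-inducible activator of p38 signalling, had -0.46 and -1.40 (difference 0.94, adjusted p = 0.0156). Mycn, a member of the Myc family, fell in both comparisons, by 0.61 and by 1.45, and its difference of 0.84 passed (adjusted p = 0.0248), but not as the mean over its 3 probe sets (0.44).

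Sema7a, Slamf7, Il12rb1, Ccl4, Scin and Mgat5 were further members of the 28 that fell with AktI only. Sema7a, a membrane-anchored semaphorin, read 6.11, 5.88 and 5.89 in Cre control, 5.34, 5.79 and 5.42 in PDK1 null, 8.32, 8.17 and 8.10 in wild type and 6.53, 6.40 and 6.64 in AktI cultures. Both perturbed groups lay below their controls, with effects of -0.45 and -1.67, and the difference was 1.23 (standard error 0.162, adjusted p = 0.00357). Slamf7, a SLAM family receptor, had -0.53 after deletion and -1.28 with AktI (difference 0.76, adjusted p = 0.0189). Il12rb1, a chain of the IL-12 receptor, had -0.42 and -1.10 (difference 0.68, adjusted p = 0.0187), and the chemokine gene Ccl4 had -0.08 and -0.85 (difference 0.78, adjusted p = 0.0348). The Ccl4 call held in 3 of 12 fits with an array left out. Scin, which encodes the actin-severing protein scinderin, had -0.57 and -2.10 (difference 1.53, adjusted p = 0.0141), and Mgat5, an enzyme that branches N-glycans, had -0.22 and -1.04 (difference 0.82, adjusted p = 0.00576). The other Mgat5 probe sets had differences of 0.44 and 0.49 that did not pass. The mean over its probe sets missed the 1.5-fold minimum. Over all 28 of these genes the median AktI effect was -1.19 and the median Pdpk1 effect -0.08, with Pdpk1 estimates between -0.67 and 0.31, and 18 of the 28 shared the sign of the AktI effect.

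Cd68, a lysosomal protein of macrophages that is also on the myeloid marker list, fell with AktI (-1.30) and had 0.31 after deletion (difference 1.61, adjusted p = 0.0133). It was the only myeloid marker of 17 whose difference passed, while 5 of the 17 were above background in both experiments. The mean log2 signal over the 17 markers was 4.53 to 4.65 in Cre control, 4.63 to 4.79 in PDK1 null, 4.52 to 4.68 in wild type and 4.40 to 4.47 in AktI cultures, so it was higher after deletion and lower with AktI without overlap except at the edge of the Pdpk1 groups. The group means of Cd68, Csf1r and Fcgr3 were above background in both wild type and AktI cultures. That of Mcpt8 was above it in wild type only and that of Kit with AktI only. The other markers, among them Lyz2 and Cd14, were below background in both. Whether other cells contribute to Cd68 was not tested.

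The transcripts that rose further with AktI were fewer. Ctla4, an inhibitory receptor that competes with CD28 for its ligands, read 8.46, 8.45 and 8.66 in Cre control and 9.52, 9.25 and 9.49 in PDK1 null CTL, against 7.01, 7.21 and 7.25 in wild type and 9.87, 10.15 and 10.01 in AktI cultures. Ctla4 rose in both comparisons, by 0.90 and by 2.85, and the difference was -1.96 (standard error 0.143, adjusted p = 1.68e-05, 3.89-fold), the smallest adjusted p among the lower genes away from Pdpk1 after that of Mtm1. Aqp3, a water and glycerol channel, was at 4.83, 4.94 and 4.48 in Cre control, 6.34, 5.63 and 5.45 in PDK1 null, 5.75, 5.90 and 6.04 in wild type and 8.65, 8.68 and 8.90 with AktI. All PDK1 null arrays were above their controls, with an effect of 1.06 that did not pass (adjusted p = 0.0556). The difference from the AktI effect of 2.85 was -1.79 (adjusted p = 0.0085). Another Aqp3 probe set above background in both experiments had effects of 0.99 and 1.59. Its difference of -0.61 did not pass (adjusted p = 0.156). Of the Aqp3 probe sets not above background in both, 1 passed in the same direction (-2.66) and 1 had 0.35. The size of the Aqp3 difference thus depends on the probe set. Pygm, muscle glycogen phosphorylase, had effects of 0.26 and 1.87 (difference -1.61, adjusted p = 0.00113), with both control means below background, so that these sizes are not exact. Ndnf, a secreted neurotrophic factor gene, had 0.50 and 2.15 (difference -1.65, adjusted p = 0.00543). Ddc, aromatic L-amino acid decarboxylase, rose in both by 0.85 and 1.61 (difference -0.76, adjusted p = 0.0374), a call that 9 of the 12 omissions of an array ended. The mean over the Ddc probe sets did not pass (-0.405, adjusted p = 0.159).

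The 8 genes of this kind that passed with AktI only all had Pdpk1 effects of the same sign, from 0.16 to 1.06 with a median of 0.33, against a median AktI effect of 1.30. Of 20 members measured of the lymphoid homing and Foxo/Klf2 target list, 9 rose after deletion and 12 rose with AktI. Over all 18193 genes, 183 rose after deletion and 274 with AktI. The list had 0 members whose difference passed by limma. At an unadjusted p under 0.05, 2 of the 19 above background were higher and 6 lower, against 6.81% and 6.94% of comparable genes. The list's median was 0.60 for the Pdpk1 effect, 0.79 for the AktI effect and -0.18 for the difference. Klf2, a transcription factor of T cell quiescence and trafficking, read 6.16, 5.75 and 6.40 in Cre control and 7.93, 6.83 and 7.65 in PDK1 null CTL, and 7.14, 7.50 and 6.75 in wild type and 9.74, 9.88 and 9.52 with AktI. The difference of -1.21 (95% interval -1.99 to -0.44, adjusted p = 0.213) did not pass. Ccr7, the chemokine receptor for lymph node entry, had effects of 1.59 and 1.62, and its difference of -0.03 came with an interval of -0.73 to 0.68, too wide to place the effects within 1.5-fold of each other. S1pr1, the receptor for lymphoid exit, had -0.72 (interval -1.63 to 0.20), and Il7r, the IL-7 receptor chain, 0.26 (interval -0.23 to 0.74).

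**Figure D3:**
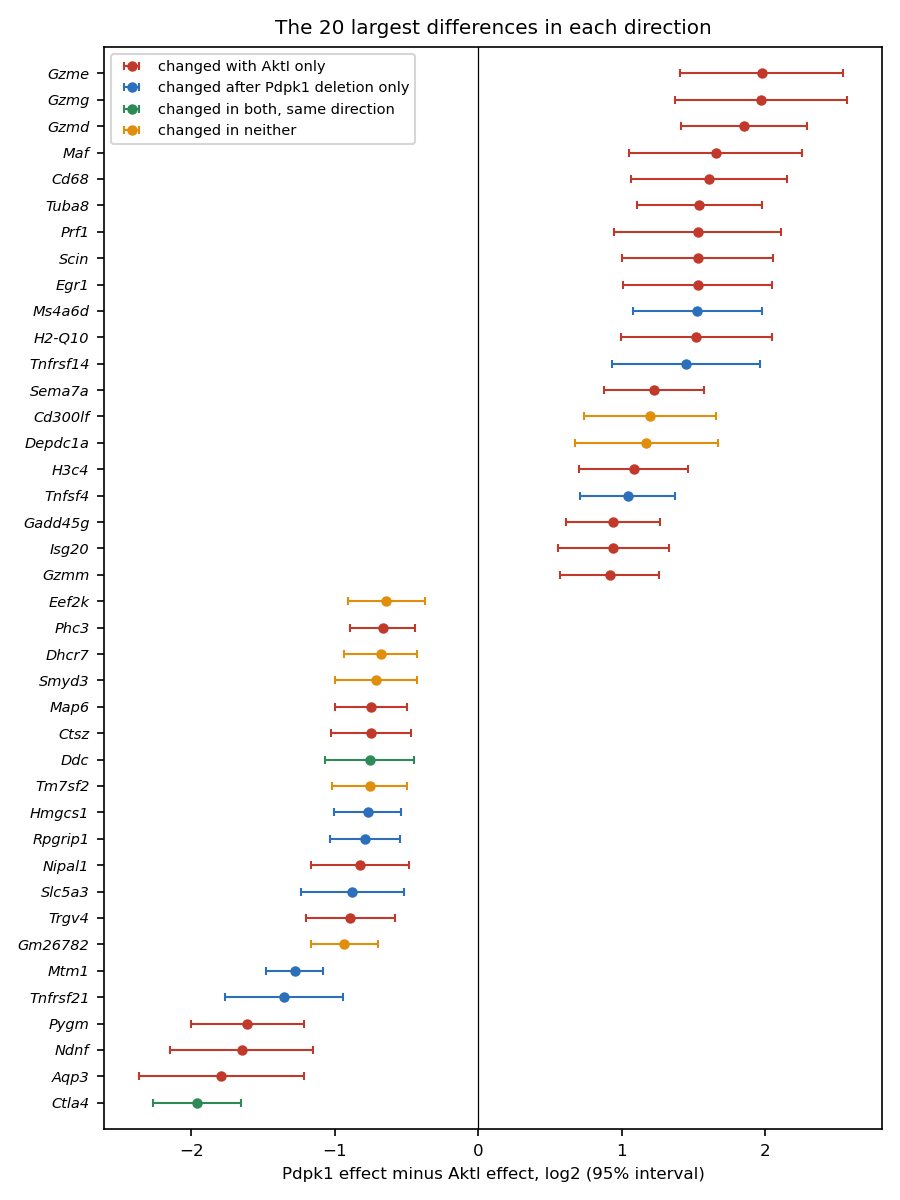
Difference of the effects (Pdpk1 minus AktI, log2) with 95% intervals for the 20 largest positive and 20 largest negative differences among the 68 genes that passed above background in both experiments and away from Pdpk1. Positive values run from 0.92 for Gzmm to 1.97 for Gzme and negative ones from -0.64 for Eef2k to -1.96 for Ctla4.

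The 6 genes above background that rose after Pdpk1 deletion only included Tnfrsf14, Tnfsf4, Ms4a6d and Ms4a4b. Tnfrsf14, the herpesvirus entry mediator and a receptor for LIGHT and BTLA, read 4.27, 4.58 and 4.32 in Cre control and 5.39, 5.74 and 6.17 in PDK1 null CTL, against 5.58, 5.19 and 5.12 in wild type and 5.23, 5.10 and 5.32 in AktI cultures. The PDK1 null arrays lay apart from their controls, of which only 1 exceeded background, while the AktI arrays overlapped theirs. The effects were 1.37 and -0.08, and the difference was 1.45 (standard error 0.239, adjusted p = 0.0178). The Cre control mean of Tnfrsf14 (4.39) was below background, so the sizes of its rise and of its difference are not exact. The adjusted p reached 0.06 at most and missed the threshold without Cre control 1 or 3, wild type 1 or AktI 2. Tnfsf4, which encodes OX40 ligand, read 7.97, 7.69 and 7.77 in Cre control, 8.50, 8.32 and 8.67 in PDK1 null, 8.48, 8.84 and 8.64 in wild type and 8.24, 8.31 and 8.34 with AktI. Neither pair of groups overlapped and the directions were opposite, at 0.69 and -0.35 (difference 1.04, standard error 0.153, adjusted p = 0.00798). On the checkpoint and costimulatory list, with 29 members measured, the difference passed in 3 upward (Tnfrsf14, Tnfsf4 and Slamf7) and 2 downward (Ctla4 and Tnfrsf21). Of comparable genes, 0.411% passed upward and 0.196% downward. The list's median was 0.30 after deletion, -0.08 with AktI and 0.35 for the difference.

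MS4A genes encode tetraspanning membrane proteins of lymphoid and myeloid cells. Of 9 measured, 5 were above background in both experiments, and all 5 had a positive difference, with a median of 0.78. The difference passed in Ms4a6d and Ms4a4b. Of comparable genes, 0.411% passed upward and 51.1% had negative estimates. These 5 genes belong to the same family, so they are not independent observations. Ms4a6d read 6.30, 5.90 and 6.41 in Cre control and 7.30, 7.50 and 6.96 in PDK1 null, and 8.27, 8.35 and 7.99 in wild type against 7.77, 7.72 and 7.69 with AktI. It thus rose by 1.05 after deletion and had -0.48 with AktI, with no overlap in either experiment (difference 1.53, standard error 0.207, adjusted p = 0.00409), and 1 of its 2 other probe sets gave a like value. Ms4a4b rose by 1.09 after deletion and had 0.18 with AktI (difference 0.91, adjusted p = 0.0306), though its AktI experiment signals were 13.90, 13.94 and 13.78 in wild type and 14.06, 14.07 and 14.02 with AktI, near the brightest of the arrays. With a block for the mice of the AktI experiment its adjusted p was 0.0601, so the call was lost. Ms4a4c and Ms4a6b rose after deletion as well, by 1.18 and 1.13, and their differences of 0.78 and 0.77 did not pass (adjusted p = 0.294 and 0.192). Ms4a6c rose in both comparisons, by 1.78 and 1.43. The mean log2 signal over the 17 myeloid markers was on the whole higher after deletion and lower with AktI, the directions of Ms4a6d. In the AktI experiment this mean was below background (4.99). Only 5 of the 17 markers were above background in both experiments. Those 5 had a median of 0.26 for the Pdpk1 effect, -0.045 for the AktI effect and 0.53 for the difference. The part of myeloid cells in the MS4A values was not tested.

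The largest falls after Pdpk1 deletion with an AktI effect near 0 were those of Tnfrsf21 and Mtm1. Tnfrsf21, death receptor 6, lies on chromosome 17 but beyond the neighbourhood of Pdpk1 as counted here. It read 6.50, 6.81 and 6.72 in Cre control and 5.50, 5.44 and 4.89 in PDK1 null CTL, and 6.98, 6.89 and 6.77 in wild type against 6.84, 6.78 and 6.87 with AktI. The fall of 1.40 had no counterpart with AktI (-0.05), and the difference was -1.35 (standard error 0.191, adjusted p = 0.00577). Its other probe set, above background in both experiments, had effects of -0.57 and -0.12. The difference of that probe set was -0.45 and did not pass (adjusted p = 0.181). Mtm1, a phosphoinositide phosphatase on the X chromosome, fell by 1.29 after deletion and had -0.01 with AktI (difference -1.28, standard error 0.0917, adjusted p = 1.51e-05). Of its 2 other probe sets 1 passed in the same direction (-1.50) and 1 had 0.27. Slc5a3, a sodium-coupled myo-inositol transporter, fell by 0.69 after deletion and had 0.19 with AktI (difference -0.88, adjusted p = 0.0369), and the mean over its 3 probe sets did not pass (-0.45, adjusted p = 0.148).

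The difference was also negative for 3 enzymes of cholesterol synthesis. Of 26 members of the sterol and SREBP list measured, 3 had a difference that passed (Hmgcs1, Tm7sf2 and Dhcr7), all lower after deletion (0.196% of comparable genes passed that way), and 0 passed upward. At an unadjusted p under 0.05, 13 of the 25 above background were lower and 1 higher, against 6.94% and 6.81% of comparable genes. The estimate was negative in 19 of 25, against 51.1% of comparable genes. The median was -0.34 after deletion, -0.04 with AktI and -0.25 for the difference. SREBP transcription factors drive these genes when membrane sterol is low.

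Hmgcs1, the synthase that makes HMG-CoA, read 11.79, 11.95 and 11.78 in Cre control and 10.92, 10.95 and 11.00 in PDK1 null CTL, and 12.47, 12.40 and 12.28 in wild type against 12.35, 12.17 and 12.29 with AktI. The Pdpk1 groups were far apart and the AktI groups overlapped. It fell by 0.89 after deletion and had -0.11 with AktI, a difference of -0.77 (standard error 0.107, adjusted p = 0.00489), and all 4 of its other probe sets had negative differences, 2 of which passed. Tm7sf2, a sterol C14 reductase, read 7.01, 7.03 and 6.97 in Cre control, 6.43, 6.46 and 6.52 in PDK1 null, 7.82, 7.65 and 7.51 in wild type and 8.02, 7.84 and 7.80 with AktI. Dhcr7, which catalyses the last step to cholesterol, read 6.65, 6.79 and 6.94 in Cre control, 6.31, 6.32 and 6.32 in PDK1 null, 8.08, 8.11 and 7.87 in wild type and 8.26, 8.23 and 8.19 with AktI. In both genes all PDK1 null arrays were below their controls and the AktI mean was above that of wild type CTL. Neither effect reached 1.5-fold by itself (-0.53 and 0.22 for Tm7sf2, -0.47 and 0.20 for Dhcr7), and the differences were -0.76 (adjusted p = 0.0141) and -0.68 (adjusted p = 0.0241), the latter passing in 6 of 12 fits with an array left out. Sqle, squalene epoxidase, had a difference of -0.54 (adjusted p = 0.0241) that missed the 1.5-fold minimum, and it was picked out after its value was seen. The regulators Srebf1 and Srebf2 had differences of 0.04 and 0.16.

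The promoters of the 3 enzymes are printed to show the SREBP-type motif TCACNCCAC and the NF-Y-type motif CCAAT, searched on both strands, with matches in capitals. RefSeq (GRCm38.p6) places the windows, 250 bases before to 50 after the gene start, at chr13:119690101-119690400 on the plus strand for Hmgcs1, chr19:6067801-6068100 on the minus strand for Tm7sf2 and chr7:143829964-143830263 on the plus strand for Dhcr7, which has 3 such windows in the table.
Hmgcs1: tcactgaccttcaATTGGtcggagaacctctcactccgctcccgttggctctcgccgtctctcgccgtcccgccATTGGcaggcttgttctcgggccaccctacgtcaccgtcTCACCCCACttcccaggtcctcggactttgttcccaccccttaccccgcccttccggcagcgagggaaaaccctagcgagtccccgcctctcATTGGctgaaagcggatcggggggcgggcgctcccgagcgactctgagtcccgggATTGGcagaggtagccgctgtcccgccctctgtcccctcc
Tm7sf2: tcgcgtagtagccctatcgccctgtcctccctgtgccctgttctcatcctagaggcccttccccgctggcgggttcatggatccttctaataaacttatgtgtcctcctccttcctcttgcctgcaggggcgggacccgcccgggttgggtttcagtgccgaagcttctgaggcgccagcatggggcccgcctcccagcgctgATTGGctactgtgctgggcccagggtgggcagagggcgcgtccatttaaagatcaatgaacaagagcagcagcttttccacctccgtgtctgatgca
Dhcr7: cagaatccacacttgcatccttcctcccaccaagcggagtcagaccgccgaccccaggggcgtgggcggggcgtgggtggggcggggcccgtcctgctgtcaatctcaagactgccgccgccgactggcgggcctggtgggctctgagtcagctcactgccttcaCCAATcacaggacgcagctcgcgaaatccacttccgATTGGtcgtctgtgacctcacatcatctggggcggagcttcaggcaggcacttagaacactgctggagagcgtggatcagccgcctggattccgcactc
The Hmgcs1 window held 1 SREBP-type and 4 NF-Y-type matches, that of Tm7sf2 1 NF-Y-type match, and the Dhcr7 window shown 2, while its other 2 windows held no match to either motif. Of the 21 sterol list genes with a promoter in the table, 19 held CCAAT (90.5%), against 42% of 14452 measured genes and 37.4% of all 32851 promoters. The SREBP-type letters were in 1 of the 21 and in 1.24% of all promoters. A match describes letters in the window and is not evidence that a factor binds there.

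On 4 other anabolic lists most estimates were negative and at most 1 difference passed. Of comparable genes, 51.1% had negative estimates and 0.607% had a difference that passed. At an unadjusted p under 0.05, 6.94% of comparable genes were lower and 6.81% higher. Fatty acid synthesis and desaturation genes had 1 difference that passed, that of Pparg, a nuclear receptor of lipid metabolism below background in the AktI experiment, and 21 of the 22 members above background in both experiments had negative estimates, with a median of -0.13. Amino acid synthesis and ATF4 response genes had 0 that passed by limma, 19 of 22 negative and a median of -0.21, with 7 members lower and 1 higher at an unadjusted p below 0.05. Amino acid and iron transporters had 12 of 13 negative and a median of -0.26, and Slc5a3, which is on this list, was the 1 that passed. Ribosome biogenesis and Myc genes had 23 of 26 negative and a median of -0.19, and the 1 that passed, Mycn, was positive. The shifts were small, and in 23 of those 26 the 95% interval lay within 1.5-fold either way. Of glycolysis and glucose uptake genes 0 of 24 passed by limma, at an unadjusted p under 0.05 none was higher and 1 was lower, the medians were -0.17 after deletion and -0.18 with AktI, and for 22 of 24 the interval lay within 1.5-fold. Hk2, hexokinase 2, had -0.66 and -0.53, with a difference of -0.13 (interval -0.45 to 0.18).

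On the type I interferon response list 1 difference passed, where 0.607% of comparable genes passed. By call 3 of 28 members rose and 0 fell after deletion, and 2 rose and 5 fell with AktI. Among all 18193 genes, 183 rose and 65 fell after deletion, and 274 rose and 187 fell with AktI. All 28 were above background, and the estimate of the difference was positive in 25, with medians of 0.13 after deletion, -0.36 with AktI and 0.51 for the difference. The 1 that passed was Isg20, an exonuclease gene, with -0.39 and -1.33 (difference 0.94, adjusted p = 0.0379), a call lost on omission of most arrays, since it passed in 2 of those 12 fits. At an unadjusted p under 0.05, 12 of 28 were higher and 0 lower, against 6.81% and 6.94% of comparable genes. Arrays of a group varied widely on this list. Usp18, an interferon-induced protease picked out after its value was seen, read 7.25, 6.00 and 7.03 in Cre control, 6.31, 7.70 and 7.32 in PDK1 null, 10.99, 10.69 and 9.97 in wild type and 9.07, 9.32 and 8.76 with AktI. The PDK1 null arrays spanned their controls and the AktI arrays all lay below theirs, and the difference of 1.85 did not pass (standard error 0.523, adjusted p = 0.192).

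Pik3cg, Dusp6 and Eef2k were among the 16 genes that passed in neither experiment alone. Pik3cg, the catalytic subunit p110γ of PI3K, read 8.21, 8.37 and 8.24 in Cre control and 8.70, 8.50 and 8.74 in PDK1 null CTL, and 9.30, 9.11 and 9.32 in wild type against 9.01, 8.89 and 9.05 with AktI. Neither pair of groups overlapped and the shifts ran in opposite directions (0.37 and -0.26, difference 0.63, adjusted p = 0.0428), while its other probe set had 0.06. Dusp6, a phosphatase that inactivates ERK, had 0.33 and -0.29 (difference 0.62, adjusted p = 0.0471). Eef2k, the kinase of elongation factor 2, had -0.26 and 0.38 (difference -0.64, adjusted p = 0.0452). Its other probe sets had differences of -0.21 and -0.14, and the mean over its probe sets did not pass (-0.33, adjusted p = 0.156). All 3 calls were close to the threshold and held in 2 of 12 fits with an array left out, and that of Eef2k was also lost with a block for the mice of the AktI experiment (adjusted p = 0.0764). Of the 28 genes measured of the PI3K, PDK1 and Akt list, Pik3cg was the only one whose difference passed. Over all 18193 genes, 0.522% passed. Akt1 and Akt2 had differences of -0.03 (interval -0.23 to 0.18) and 0.03 (interval -0.20 to 0.26). The list of other AGC kinases, with 22 members measured, also held Mtm1, which is a phosphatase and not a kinase, and Mtm1 was the only member whose difference passed. Its median difference was -0.006, and Prkcb, a PKC isoform, rose by 0.79 after deletion with a difference of 0.55 that did not pass.

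**Figure D4:**
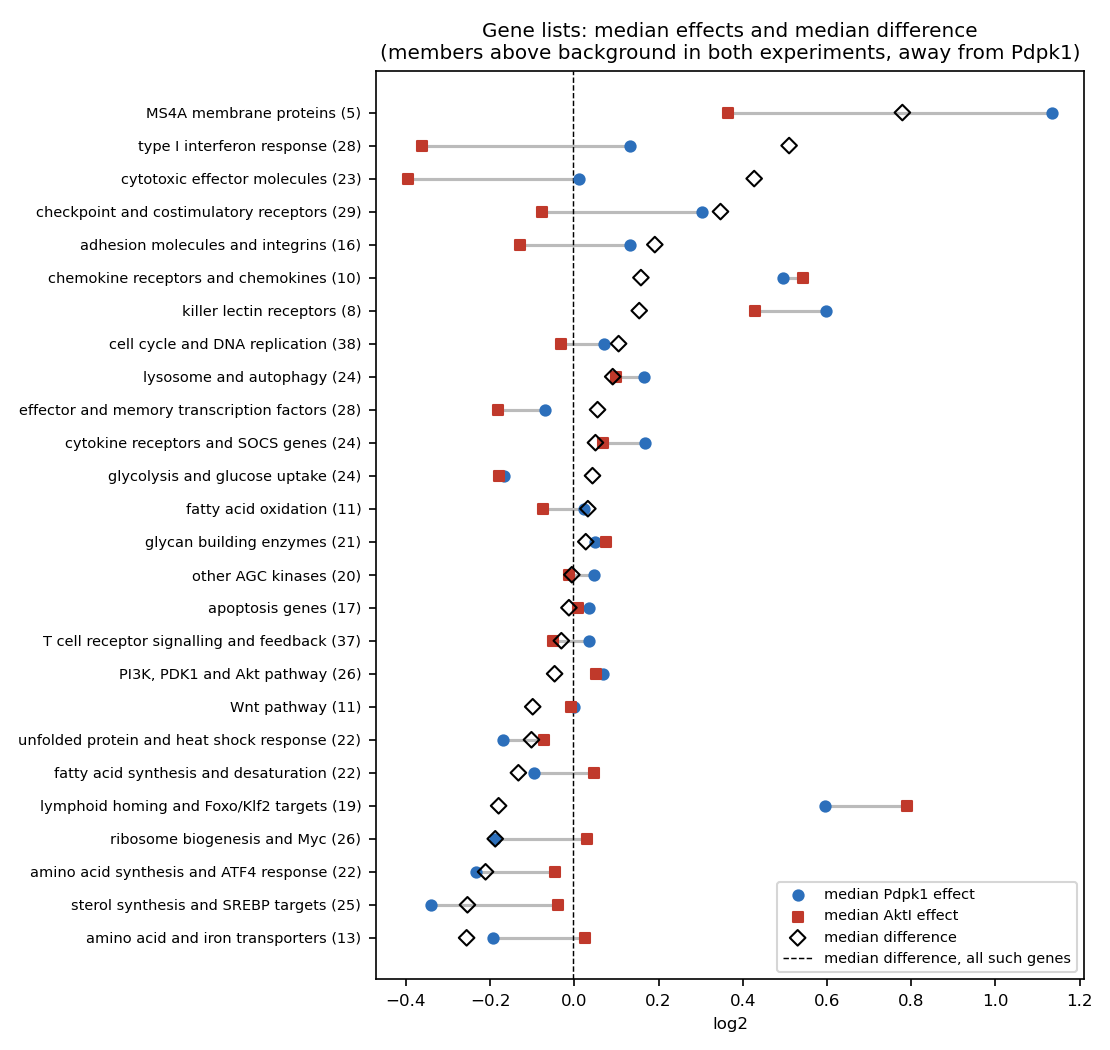
Median Pdpk1 effect (circles), median AktI effect (squares) and median difference (diamonds), in log2 units, for 26 gene lists, with the number of members above background in both experiments and away from Pdpk1 in parentheses. The diamonds run from -0.256 for amino acid and iron transporters to 0.779 for MS4A membrane proteins, and the dashed line is the median difference of all such genes (-0.004).

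Further differences that passed were spread over genes of other kinds. Tuba8, an alpha tubulin gene, read 5.71, 5.55 and 5.80 in Cre control, 5.70, 6.16 and 5.54 in PDK1 null, 8.68, 8.46 and 8.29 in wild type and 7.04, 7.16 and 6.93 with AktI. The Pdpk1 groups overlapped and the AktI groups were apart, with a difference of 1.54 (standard error 0.202, adjusted p = 0.0034). Its other probe set had 0.42 and did not pass. Cd300lf, an immunoglobulin-type receptor best known in myeloid cells, had 0.57 and -0.63 (difference 1.20, adjusted p = 0.0274), and Cd72, a B cell coreceptor, had 0.39 and -0.34 (difference 0.72, adjusted p = 0.0455), with both pairs of groups apart in both genes. Map6, a microtubule-associated protein gene, had 0.17 and 0.91 (difference -0.75, adjusted p = 0.0133), and Ctsz, a lysosomal cathepsin, 0.16 and 0.91 (difference -0.75, adjusted p = 0.0241). Smyd3, a methyltransferase gene, had -0.54 and 0.18 (difference -0.71, adjusted p = 0.033), but its other probe set had 0.15, the mean of both did not pass (-0.28, adjusted p = 0.187), and the call held in 3 of 12 fits with an array left out.

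Adhesion molecules and integrins had 1 of 19 that passed, Selp, which was below background in the Pdpk1 experiment. The list's median difference was 0.19, with 6 higher and 3 lower at an unadjusted p under 0.05. Of comparable genes, 6.81% were higher and 6.94% lower at that p, and 51.1% had negative estimates. Over all 18193 genes, the difference passed in 0.522%, the share to set beside the counts of this paragraph. Chemokines and their receptors had 1 of 21, Ccl4, and a median of 0.16. Cell cycle and DNA replication genes had 0 of 39 that passed by limma, with 4 higher and 1 lower at an unadjusted p under 0.05 and a median difference of 0.11. Of the unfolded protein and heat shock list, 0 of 24 passed by limma, with 1 higher and 1 lower by the unadjusted p, although 20 of 22 estimates were negative (median -0.10). T cell receptor signalling genes had 2 of 38 that passed, Egr1 and Dusp6, and a median of -0.03. Killer lectin receptors had 0 of 10 by limma, none by the unadjusted p, and a median of 0.15, and apoptosis genes 0 of 18 by limma, 1 by the unadjusted p, and a median of -0.01. The interval lay within 1.5-fold for 28 of 38 cell cycle genes but for only 2 of 8 killer lectin receptors above background.

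A difference that did not pass is not evidence of equal effects, so the precision was examined as well. The median standard error of the difference was 0.112 over the 11203 genes, and for 87.2% of them the 95% interval lay within 1.5-fold either way. Of 133 genes that passed in both comparisons in the same direction, above background and away from Pdpk1, 110 rose and 23 fell. The AktI effect was the larger for 91 of the 133, and the interval of the difference lay within 1.5-fold for 54. Tnfrsf23, a TNF receptor family decoy gene chosen after its values were seen, is a clear case, at 5.92, 5.92 and 5.73 in Cre control, 7.07, 7.04 and 7.29 in PDK1 null, 5.45, 4.96 and 5.27 in wild type and 6.47, 6.60 and 6.50 with AktI. It rose by 1.27 and 1.29, with a difference of -0.02 (interval -0.36 to 0.32). Bach2, a transcriptional repressor that restrains effector differentiation, chosen likewise, rose by 1.10 and 1.15 (difference -0.05, interval -0.34 to 0.24). Nt5e, which encodes CD73, rose in both by 1.24 and 2.39, and its difference of -1.16 did not pass with all arrays (adjusted p = 0.0654) but passed without PDK1 null 1 (0.00298) and under some other settings. The smallest difference that passed was 0.594 on the log2 scale.

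For 10 genes away from Pdpk1 the difference passed although the gene was below background throughout an experiment, where a fall cannot be seen and the size of a rise is not exact. Selp, which encodes P-selectin, read 3.73, 4.10 and 3.72 in Cre control and 4.44, 4.13 and 4.15 in PDK1 null CTL, all under the level of 4.45, against 5.22, 5.80 and 4.67 in wild type and 8.21, 8.74 and 8.25 with AktI. Its difference was -2.77 (adjusted p = 0.00128), and both other probe sets passed in the same direction. Wls, which carries Wnt proteins to the cell surface, was at 9.42, 10.16 and 10.45 in PDK1 null CTL alone and had a difference of 6.19 (adjusted p = 6.63e-07), with wild type and AktI means below background. Pparg was at 6.42, 6.15 and 6.39 in Cre control and 4.92, 5.38 and 5.58 in PDK1 null CTL and below background in the AktI experiment, so its difference of -1.05 (adjusted p = 0.0328, and 0.0603 with a block for the mice of the AktI experiment) says only that it fell after deletion. Bank1, a B cell scaffold gene, was below background in both Pdpk1 groups and read 6.67, 6.69 and 6.24 in wild type against 5.56, 5.58 and 5.64 with AktI (difference 0.98, adjusted p = 0.00967). The B cell markers had mean log2 signals over 10 genes of 4.61 to 4.71, 4.68 to 4.79, 5.50 to 5.54 and 5.46 to 5.56 in Cre control, PDK1 null, wild type and AktI cultures. In wild type and AktI cultures 6 of the 10 were above background, and the difference passed in 0 of the 10 by limma. Whether B cells contribute to Bank1 was not tested.

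Neighbours of Pdpk1 on chromosome 17 were set apart because the floxed allele lies there. Up to 200 measured genes on each side, 127 and 200, gave 327 genes, of which 17 passed (5.2%, against 0.607% of the genes elsewhere that were above background), 6 higher and 11 lower after deletion. In 15 of the 17 the change was seen after deletion only. Of 24 Zfp zinc finger genes measured among the neighbours, 7 passed, 6 of them lower. Zfp945 read 6.54, 6.33 and 6.66 in Cre control and 4.39, 4.52 and 4.44 in PDK1 null CTL, and 6.59, 6.73 and 6.39 in wild type against 7.30, 7.06 and 7.08 with AktI, so that the groups were apart in both experiments and in opposite directions (difference -2.63, standard error 0.148, adjusted p = 1.33e-06). The other probe sets of Zfp945 had 0.005 and -0.06, the former above background in both experiments, so the difference rests on 1 probe set of 3. Zfp948 (-1.77) and Zfp994 (-1.54) followed, with Baiap3 at -1.40. Tmem181a had the largest positive difference, 1.22 (adjusted p = 0.000302), from a rise of 1.22 after deletion and 0.00 with AktI. The other 2 were Zfp983, which passed in neither experiment alone (difference 0.91), and Prss30, a serine protease gene, which rose by 0.98 with AktI and had -0.39 after deletion (difference -1.37, adjusted p = 0.00386). Gfer fell on its brighter probe set (-0.86) and its other probe set passed in the opposite direction (0.96), so no direction is given for it.

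**Figure D5:**
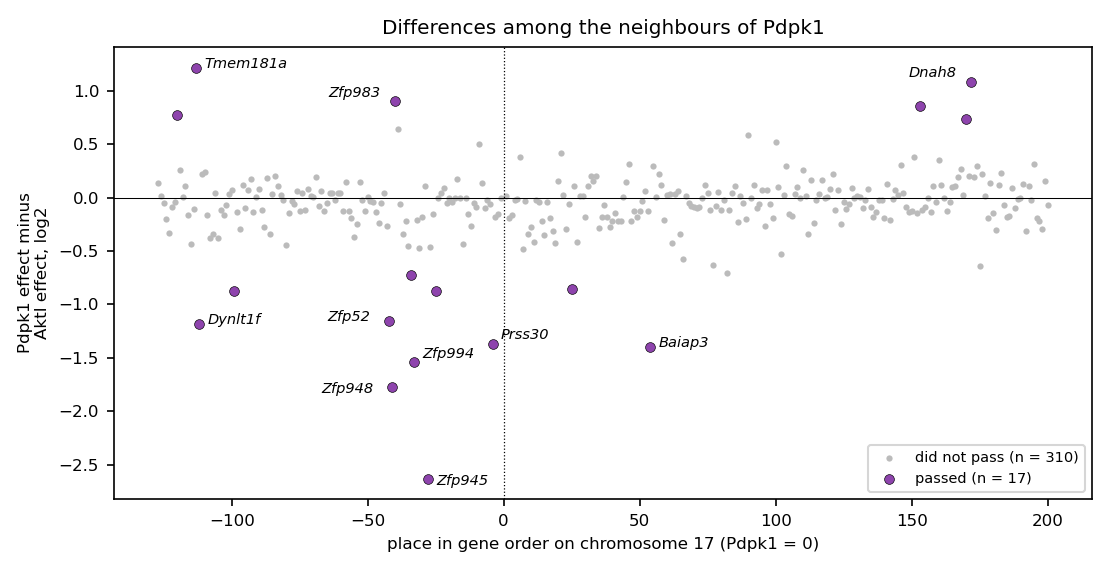
Difference of the effects (Pdpk1 minus AktI, log2) for 327 measured genes around Pdpk1, placed by gene order along chromosome 17 with Pdpk1 at 0. The 17 that passed lie between positions -120 and 172, and the largest, Zfp945 at -2.63, lies at position -28.

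Of the 95 genes that passed, 52 have more than 1 probe set. Another probe set passed in the same direction for 15 and in the opposite direction for 1, Gfer. Of 45 other probe sets of these genes that were above background in both experiments, 39 had the sign of the representative one. H2-Q10 and H2-Q5, class I genes of chromosome 17 outside the neighbourhood, have close relatives that share sequence, so their differences of 1.52 and 0.65 are uncertain as to gene. When each of the 12 arrays was left out in turn, 44 of the 95 and 27 of the 68 passed every time, and none changed sign.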

How the data were processed

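RNA of each culture was hybridised to its own Affymetrix GeneChip mouse genome array. The authors deposited log2 signals summarised by RMA, and the submitters' processing notes name Affymetrix Expression Console 1.1. These log2 values were used as deposited. Of 45101 probe sets, 64 controls were left out and 45037 were tested. Through the platform annotation 34945 named 1 gene, 932 several and 9160 none, and each of 18193 genes was represented by its probe set of highest average signal across the 12 arrays.

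A mean per group was fitted with limma 3.58.1 (R 4.3.3), and the difference of the effects was tested as a contrast with moderated variances. Benjamini-Hochberg adjustment ran over the 45037 probe sets, and passing required both an adjusted p under 0.05 and a 1.5-fold size. Each effect was also fitted on its own 6 arrays. P-values rest on the spread of arrays within groups. The main fit had no term for the mouse, so it left out the pairing of wild type and AktI cultures. A block for those mice was an alternative. The 3 arrays of a group limit the precision, and an exact permutation test of 3 against 3 cannot go below 0.1, so none was used. On simulated data the fit recovered 73.1%, 98.5% and 100% of differences of 1.75, 2.5 and 4-fold among 45037 probe sets, with 4 false calls. The simulated noise was normal and independent, with the same spread in all groups of a probe set and no pairing by mouse. Changes were placed in PDK1 null only. These figures hold for data that meet the fitted model and do not measure the reliability of the calls.

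Replicates of a group correlated with r of 0.9958 to 0.9978. In the AktI experiment, where the control and treated cultures of a number came from the same mouse, deviations from the group means correlated with r of 0.17, 0.0343 and 0.0607 within mice. The members, gene lists and tests were chosen with earlier results of these data known. Genes named were the 20 largest differences in each direction among those that passed above background in both experiments and away from Pdpk1, the 8 largest among other genes away from Pdpk1, the 10 largest among its neighbours, list members that passed, and genes of homing, effector function and shared responses. Other genes were named after their values were seen. Tested alternatives were the variance model, replicate blocks, normalization, filters, fold minimum, summary of probe sets, background level and the omission of each array.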

Additional observations from a re-analysis of the deposited data

How the results depend on the processing

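The number of genes whose difference passed moved most with the fold minimum and with single arrays. With a 2-fold minimum 38 of 95 genes passed, 29 of 78 away from Pdpk1, 32 of 85 above background in both experiments and 23 of 68 that were both. Leaving out each array in turn gave 53 to 124, 38 to 108, 47 to 108 and 32 to 92. Without Cre control 1 or 3, wild type 1, or AktI 1 or 2 the 95 became 59, 55, 53, 60 and 56, and the 68 became 39, 33, 32, 38 and 37. A replicate block for the mice of the AktI experiment gave 97 genes, 79 of them shared with the 95, and one by number in both experiments 113, with 75 shared. In the Pdpk1 experiment same-numbered samples share only a number (r of 0.0496, 0.03 and -0.011). The mouse block ended the calls of Depdc1a (adjusted p = 0.0765), Nipal1 (0.0764), Eef2k, Ms4a4b and Pparg among 67 named genes that passed. Other settings gave 88 to 136 genes in all, the upper end with the spread of each experiment estimated apart. Averaging the probe sets within genes also gave 95 genes, but only 67 were shared with the main 95. Above background in both experiments and away from Pdpk1 it gave 69, with 47 shared with the 68. Averaging ended the calls of Ddc, Dnah8, Eef2k, Maf, Mgat5, Mycn, Nipal1, Phc3, Pik3cg, Rpgrip1, Slc5a3, Smyd3 and Vipr1. Slamf6 and Slc14a1 gained a call by it. Quantile normalization gave 88 genes, 83 shared, and ended the calls of Ddc, Depdc1a, Dusp6, Isg20 and Nipal1, while limma with trend and robust settings ended those of Maf and Prf1 (adjusted p = 0.0632 and 0.085). Of all values of the 95 named genes under alternatives, 1886 kept their side of the threshold, 277 lost it and 12 gained it. No named gene that passed changed sign, while the estimates of Akt1, Akt2, Ccr7 and Prss12, which did not pass, did under 15 settings in all. The causes were not tested.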
